A study of Mus musculus with 34 samples.

Results

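Islets of mice given diphtheria toxin (DT) to ablate beta cells were compared between a diet labelled HFD and a diet labelled SD. They were taken 10 weeks after the ablation. How many beta cells were lost was not measured here. The labels do not spell the diets out. The comparison rests on 7 of the 34 libraries of the series, chosen by their titles: 3 titled DT HFD and 4 titled DT SD. All of these mice are labelled RIP-DTR HTZ, a genotype in which the rat insulin promoter drives the DT receptor, so that the toxin reaches cells in which that promoter is active. HTZ is not explained further. Both groups received DT, and they differ in the labels only by diet. Islets of RIP-DTR HTZ mice with no toxin (CTRL SD, n = 3, and CTRL HFD, n = 4) and of RIP-DTR HTZ mice given 75 mg/kg streptozotocin, a toxin taken up by beta cells (STZ SD, n = 4, and STZ HFD, n = 4), serve as the diet comparisons beside it. Age, sex, diet composition and the time of day of sampling are not in the labels, and no label says that replicates came from separate mice. The p-values therefore rest on the spread between libraries within groups, estimated over the 33 libraries of the fit. That spread need not be the one between mice. Besides the groups above, the fit held islets titled CTRL with no time (n = 3). It also held islets taken 5 days (n = 4) and 30 days (n = 4) after ablation with DT.

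An islet is a cluster of endocrine cells, mostly insulin-secreting beta cells, with glucagon-secreting alpha and somatostatin-secreting delta cells, a dense capillary bed and resident immune cells. Isolated islets can carry along exocrine acinar tissue, ducts and lymphoid tissue of the pancreas. Bulk RNA of such a preparation counts transcripts of all these cells together, and fewer cells of a type cannot be told apart from less RNA per cell. Beta cells replicate rarely in the adult, while activated B cells divide quickly in germinal centres, where antibody genes are mutated and selected. The gene groups below follow these roles.

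The 3 HFD libraries held 12389314 to 14943091 counts and the 4 SD libraries 14221668 to 17889676. In a principal component analysis of the 7 libraries the first component took 53.97% of the variance and placed the HFD libraries at -112.2 to -31.3 and the SD libraries at 14.3 to 98.8. Acinar markers, 31 genes, summed to 11560 to 35120 CPM (counts scaled to library size) on HFD and to 63520 to 277200 CPM on SD, without overlap. Enterocyte markers, 18 genes, summed to 3262 CPM in HFD replicate 1 and to 107.8 to 261.3 CPM in the other 6 libraries. Insulin 2 was the most abundant transcript in each library except HFD replicate 2, where glucagon was.

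The diet difference was large and of both signs. With edgeR's quasi-likelihood test, 2646 of 17616 genes (15%) were called higher on HFD and 1490 (8.46%) lower at an adjusted p below 0.05, together 23.5% of the genes tested. The median log2 fold change (HFD minus SD throughout) over all genes was -0.01. All 3 HFD libraries lay above all 4 SD libraries for 3647 genes (20.7%) and below them for 3239 (18.4%). These calls rest on HFD replicate 2, which lay at the far end of the first component. Without it edgeR called 0 genes, the smallest adjusted p being 0.0824, although 3971 genes had an unadjusted p below 0.05, and the DESeq2 Wald test called 816 higher and 354 lower. All 2646 genes called higher and all 1490 called lower kept their sign without that library. Of these genes, 2205 and 1198 had an unadjusted p below 0.05 then, and the median log2 fold changes went from 0.96 to 0.74 and from -0.87 to -0.70. Every edgeR call of HFD against SD after DT given below ends without HFD replicate 2. Without HFD replicate 3 the calls were 1883 higher and 746 lower, without SD replicate 1 they were 1543 and 701, and without SD replicate 3 they were 1336 and 631. Fitted with the 10-week groups alone, they were 2569 higher and 1870 lower.

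Transcripts of dividing cells rose across their whole list. Mitosis genes encode the kinases, motor proteins and spindle factors that part the chromosomes. Mki67, the proliferation antigen Ki-67 (chromosome 7, 135689784 to 135716361, GRCm38, the assembly also called mm10), stood at 74.4, 381 and 178.4 CPM in HFD replicates 1 to 3. In SD replicates 1 to 4 it stood at 20.7, 39.5, 6.82 and 33.6 CPM. Its highest SD library lay below its lowest HFD library, and HFD replicate 2 held more than the other two together. The log2 fold change was 3.07 (SE 0.62, edgeR adjusted p = 0.00459). Of 23 mitosis genes tested, 23 were called higher and 0 lower, with log2 fold changes from 2.00 to 3.07 and a median of 2.45. For 22 of them the diets did not overlap. Cenpe, a kinesin that holds chromosomes at the spindle, rose by 2.74 (SE 0.52, adjusted p = 0.00352). Top2a, which untangles chromosomal DNA, rose by 2.60 (adjusted p = 0.0058), as did the checkpoint kinase Bub1b by 2.54. The cyclins Ccnb1 and Ccnb2, which switch on the mitotic kinase Cdk1, rose by 2.48 and 2.52, and Cdk1 by 2.20.

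Mitosis genes are transcribed together in the cell cycle, and promoters of members that moved together here are shown for that reason. They are known for CCAAT boxes, bound by NF-Y, and for a cell-cycle homology region, TTTGAA, bound by repressor and activator complexes of the cell cycle. In the RefSeq promoter table (GRCm38.p6) 18 of the 23 genes had an entry. CCAAT, on either strand, lay within 250 bases before the start in 16 of the 18, against 37.5% of the 27025 genes of the table, and TTTGAA on either strand in 7 of the 18, against 18.3%. The letters describe the sequence only and were not tested as sites. The 100 bases before the start are given 5′ to 3′ on the gene's strand, with both motifs and their reverse complements in capitals, for Ccnb2 (chr9:70421555-70421654, minus strand), Cdk1 (chr10:69352913-69353012, minus strand) and Prc1, a spindle midzone protein whose log2 fold change was 2.17 (chr7:80294376-80294475, plus strand).
Ccnb2: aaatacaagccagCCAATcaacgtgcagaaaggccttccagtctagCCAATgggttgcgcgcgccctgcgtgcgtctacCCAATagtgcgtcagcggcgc
Cdk1: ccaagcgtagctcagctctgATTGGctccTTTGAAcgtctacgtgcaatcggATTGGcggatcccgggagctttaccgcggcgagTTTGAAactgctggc
Prc1: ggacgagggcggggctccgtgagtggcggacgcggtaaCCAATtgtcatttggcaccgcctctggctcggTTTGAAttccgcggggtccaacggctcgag

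DNA replication genes moved the same way. These genes license, copy and supply S phase. Mcm7, a subunit of the replicative helicase (chromosome 5, 138164583 to 138172422), stood at 37.1, 83.0 and 50.1 CPM on HFD and at 19.5, 22.4, 16.9 and 26.0 CPM on SD. The diets did not overlap, and the log2 fold change was 1.42 (SE 0.28, edgeR adjusted p = 0.00409). Of 29 genes tested, 26 were called higher and 0 lower (median 1.52). Pcna, the polymerase clamp, rose by 1.27, the polymerase subunit Pole by 2.46, the ribonucleotide reductase subunit Rrm2 by 2.61 and the initiation factor Mcm10 by 3.07. E2f1, a transcription factor of S-phase genes, did not pass (-0.06, adjusted p = 0.891). Leaving out any library but HFD replicate 2 left 23 to 27 of the replication genes and 23 of the mitosis genes called higher. Without HFD replicate 2 the list medians were 1.74 for mitosis and 1.00 for replication, and DESeq2 called 12 and 9 members.

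The genes that set entry into the cell cycle did not move as one. Of 15 tested, 6 were called higher and 2 lower, against 15% and 8.46% of all genes. Ezh2, a chromatin repressor abundant in dividing cells, rose by 1.79 (SE 0.38, adjusted p = 0.00492). Cdk6, a G1 kinase, rose by 1.27. Among the D cyclins, which carry growth signals to the G1 kinases, Ccnd3 rose by 0.74, while Ccnd2, the D cyclin prominent in beta cells, fell by 0.67 and Ccnd1 fell by 0.56. Ccnd2 stood at 415.3, 316.3 and 371.6 CPM on HFD and at 603.4, 526.9, 675.7 and 531.3 CPM on SD. These levels did not overlap on TMM-scaled library sizes, a result that depends on that scaling. The calls of both falling cyclins were lost without HFD replicate 3, SD replicate 1 or SD replicate 3, and 1 of them without HFD replicate 1. Cdkn1a, the CDK inhibitor p21, was level (9.67 ± 1.69 CPM, SD, n = 3, on HFD and 9.55 ± 2.11, n = 4, on SD). Of 20 genes of the p53 pathway 4 were called higher and 1 lower, against 15% and 8.46% of all genes. The list median was 0.06. Among those higher was Trp53 (log2 fold change 0.95, edgeR adjusted p = 0.00466), and the lower gene was the kinase Plk2. The higher count was 1 without HFD replicate 3 or SD replicate 3 and 2 without SD replicate 1, and the Plk2 call was lost without any of HFD replicate 3 and SD replicates 1 to 3.

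**Figure D1:**
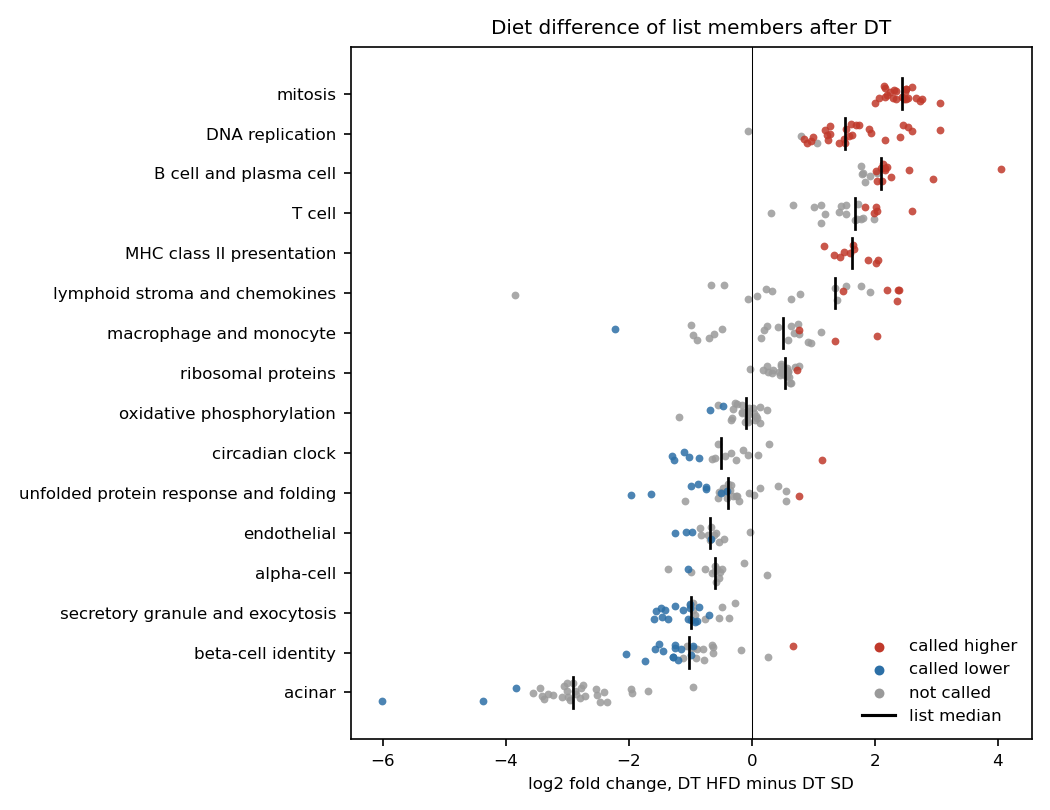
Log2 fold change (HFD minus SD after DT, x axis) of each tested member of 16 gene lists, coloured by its edgeR call, with the list median as a bar. All mitosis genes lie between 2.00 and 3.07, MHC class II genes lie between 1.18 and 2.06, and beta-cell and secretory granule genes lie mostly to the left of 0, with medians of -1.01 and -0.99.

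B-cell transcripts were higher on HFD. Blk, a kinase of B-cell receptor signalling (chromosome 14, 63372836 to 63417037), stood at 46.0, 76.5 and 61.4 CPM in HFD replicates 1 to 3. In SD replicates 1 to 4 it stood at 4.10, 22.6, 2.69 and 26.1 CPM. Every HFD library lay above every SD library, and HFD replicate 2 was the highest. The log2 fold change was 2.14 (SE 0.63, edgeR adjusted p = 0.0176). The call was lost without HFD replicate 2, SD replicate 1 or SD replicate 3 and when the 2 groups were fitted alone (edgeR adjusted p = 0.122, 0.0594, 0.0572 and 0.07). Cd79a, a signalling chain of the B-cell receptor, stood at 336.8, 542.4 and 439.9 CPM on HFD. On SD it stood at 26.2, 159.6, 19.4 and 201.4 CPM, so that SD replicates 1 and 3 held far less than replicates 2 and 4 and the diets did not overlap (log2 fold change 2.11, edgeR adjusted p = 0.0233). Of 18 genes of B and plasma cells, 12 were called higher and 0 lower, and 16 did not overlap (median 2.10). Ighm, the IgM heavy chain, stood at 1392, 6497 and 7590 CPM on HFD and at 806, 706, 161 and 988 CPM on SD. HFD replicate 1 was the lowest of the HFD group and still above all SD libraries (log2 fold change 2.95, adjusted p = 0.0138). Its call was also lost without SD replicate 3.

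The count of B-cell calls depended on single libraries. It was 5 without HFD replicate 3, 3 without SD replicate 1, 1 without SD replicate 3 and 16 without SD replicate 4, and 2 when only the 2 groups were fitted. The list median without HFD replicate 2 was 1.91. The summed level of the list was 6352, 20500 and 21150 CPM on HFD against 4905, 4601, 602.5 and 4362 CPM on SD. In mice with no toxin it was 7606 to 7658 CPM on SD and 8454 to 11650 CPM on HFD. After STZ it was 4714 to 13470 CPM on SD and 7481 to 21640 CPM on HFD. The DT SD libraries thus lay below all CTRL libraries at 10 weeks, while HFD replicates 2 and 3 after DT lay above them.

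Further genes known from germinal centres were looked at after the values of the B-cell list had been seen, and their values are a description only. Rgs13, a G-protein regulator of germinal centre B cells, had a log2 fold change of 4.09 (adjusted p = 0.00938), Nuggc, a germinal centre GTPase, 4.04 (adjusted p = 0.00459), and Gcsam, a germinal centre signalling adaptor, 3.31 (adjusted p = 0.00348). Bcl6, the transcription factor of germinal centre cells, stood at 38.4, 87.6 and 39.4 CPM on HFD and at 9.09, 22.2, 9.51 and 27.3 CPM on SD, without overlap (log2 fold change 1.69, adjusted p = 0.00515). Among the switched heavy chains, Ighg1 stood at 165.8, 665.9 and 212.9 CPM on HFD against 16.5, 25.8, 15.3 and 45.3 CPM on SD (log2 fold change 3.76, adjusted p = 0.013). Igha, the IgA chain, overlapped between diets and did not pass (-0.44, adjusted p = 0.791).

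The 12 largest rises among the genes the naming rule admits were all antibody variable segments, such as Ighv9-1, Ighv5-9 and Ighv1-53. Variable segments are joined to a constant region in each B cell, and a clone shares its segment. Levels of a segment differed widely between the HFD libraries. HFD replicate 1 was the highest library for none of the 12, and Igkv3-2 was high in both others, at 1250 and 699.7 CPM in replicates 2 and 3. Ighv9-1 stood at 5.18, 925.5 and 2.19 CPM in HFD replicates 1 to 3, and Ighv5-9 at 7.00, 21.9 and 321.5 CPM. Both were between 0.0819 and 1.87 CPM on SD. Ighv1-53 was high in all 3, at 123.9, 403.9 and 452.1 CPM against 5.61 to 14.5 CPM on SD (log2 fold change 5.18, edgeR SE 0.98, adjusted p = 0.00348). Igkv5-43, a kappa segment, reached 1439 CPM in HFD replicate 2, with 26.5 and 82.0 CPM in replicates 1 and 3. Of 217 variable segments tested, a group formed after these values were seen, 88 were called higher and 0 lower, and 111 did not overlap. Segments of a family resemble each other in sequence, and how the counting assigned reads that match several of them is not known.

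Genes of antigen presentation by MHC class II rose as a full set. These proteins display peptides of engulfed antigens to helper T cells and are made by B cells, dendritic cells and macrophages. H2-Ab1, a beta chain of the complex (chromosome 17, 34257689 to 34269419), stood at 736.8, 1141 and 821.7 CPM on HFD and at 260.4, 324.5, 131.8 and 415.4 CPM on SD. The diets did not overlap, and SD replicate 3 was the lowest. The log2 fold change was 1.67 (SE 0.41, edgeR adjusted p = 0.00767). All 10 members were called higher and none overlapped (median 1.63, and 1.43 without HFD replicate 2). The invariant chain Cd74 rose by 1.66, and Ciita, the master regulator of the set, rose by 2.06 (adjusted p = 0.0115). The count was 6 without SD replicate 3 and 6 with DESeq2 without HFD replicate 2. The summed level was 5424, 8783 and 6908 CPM on HFD and 1945, 2720, 1063 and 3474 CPM on SD, against 3752 to 3785 CPM in CTRL SD and 3400 to 5416 CPM in CTRL HFD.

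The promoters of class II genes are shown because they share a control module that recruits Ciita. Part of it is the Y box, whose core TGATTGG (reverse complement CCAATCA) contains a CCAAT box on the other strand. Of the 10 genes 7 had a RefSeq promoter entry. TGATTGG lay within 250 bases before the start, on either strand, in 5 of the 7, against 8.38% of all genes of the table. The match describes these letters only. The 100 bases before the start, with the motif in capitals, are those of H2-Aa (chr17:34287824-34287923, minus strand), H2-Eb1 (chr17:34305767-34305866, plus strand) and H2-DMb1 (chr17:34153091-34153190, plus strand). Their log2 fold changes were 1.50, 1.60 and 1.35.
H2-Aa: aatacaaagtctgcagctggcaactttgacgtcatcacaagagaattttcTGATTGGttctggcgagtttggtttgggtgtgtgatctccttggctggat
H2-Eb1: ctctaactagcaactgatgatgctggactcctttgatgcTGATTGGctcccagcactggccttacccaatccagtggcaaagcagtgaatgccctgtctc
H2-DMb1: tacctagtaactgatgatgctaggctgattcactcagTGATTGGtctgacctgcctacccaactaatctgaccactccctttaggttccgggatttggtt

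T-cell genes were higher in sign, with fewer calls. All 21 had a positive log2 fold change (median 1.68), and 5 were called higher, against 15% of all genes. Icos, a costimulator of helper T cells, stood at 12, 22.9 and 17.6 CPM on HFD and at 0.819, 4.74, 0.589 and 5.24 CPM on SD. SD replicates 1 and 3 were again the lowest, and the diets did not overlap (log2 fold change 2.61, SE 0.76, edgeR adjusted p = 0.0168). Cd4, the helper T-cell coreceptor, rose by 2.04, and Cd28 by 1.99. The cytotoxic genes Cd8a, Gzma and Gzmb did not pass (1.19, 0.31 and 0.68). The T-cell count was 1 without HFD replicate 3, 0 without SD replicate 1, 3 without SD replicate 2, 0 without SD replicate 3 and 15 without SD replicate 4, and 1 when only the 2 groups were fitted. Of 19 lymphoid stroma and chemokine genes 5 were called higher, beside the same 15% of all genes. They were Cxcl9 and Cxcl10, chemokines that attract T cells, Lta and Ltb, lymphotoxins that organise lymphoid tissue, and Tnfsf11. Cxcl13, the chemokine of B-cell follicles, did not pass (1.93, adjusted p = 0.0975). That count was 0 without SD replicate 1 and 1 without SD replicate 3.

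Few myeloid and interferon genes were called. Of 22 macrophage and monocyte genes 3 were called higher and 1 lower, against 15% and 8.46% of all genes. Itgax, the integrin CD11c of dendritic cells and some macrophages, stood at 16.6, 64.2 and 48.1 CPM on HFD and at 11.5, 11.8, 6.99 and 11.3 CPM on SD. The diets did not overlap (log2 fold change 2.04, SE 0.39, edgeR adjusted p = 0.00348). Cd163, a scavenger receptor of resident macrophages, fell by 2.22 (adjusted p = 0.0148), and the call was lost without HFD replicate 3 or SD replicate 1, in which Cd163 stood at 34.5 CPM. The macrophage count of higher calls was 6 without HFD replicate 1, 5 without SD replicate 1 and 1 without HFD replicate 3, SD replicate 2 or SD replicate 3. Adgre1, the macrophage protein F4/80, did not pass (-0.48, adjusted p = 0.29). Of 22 interferon-response genes 3 were called higher and 1 lower, beside the same shares of all genes. Irf1 was among those higher (1.09), and Rsad2 fell by 0.95. The higher count was 6 without HFD replicate 1, 5 without SD replicate 4 and 1 without SD replicate 1 or 3.

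**Figure D2:**
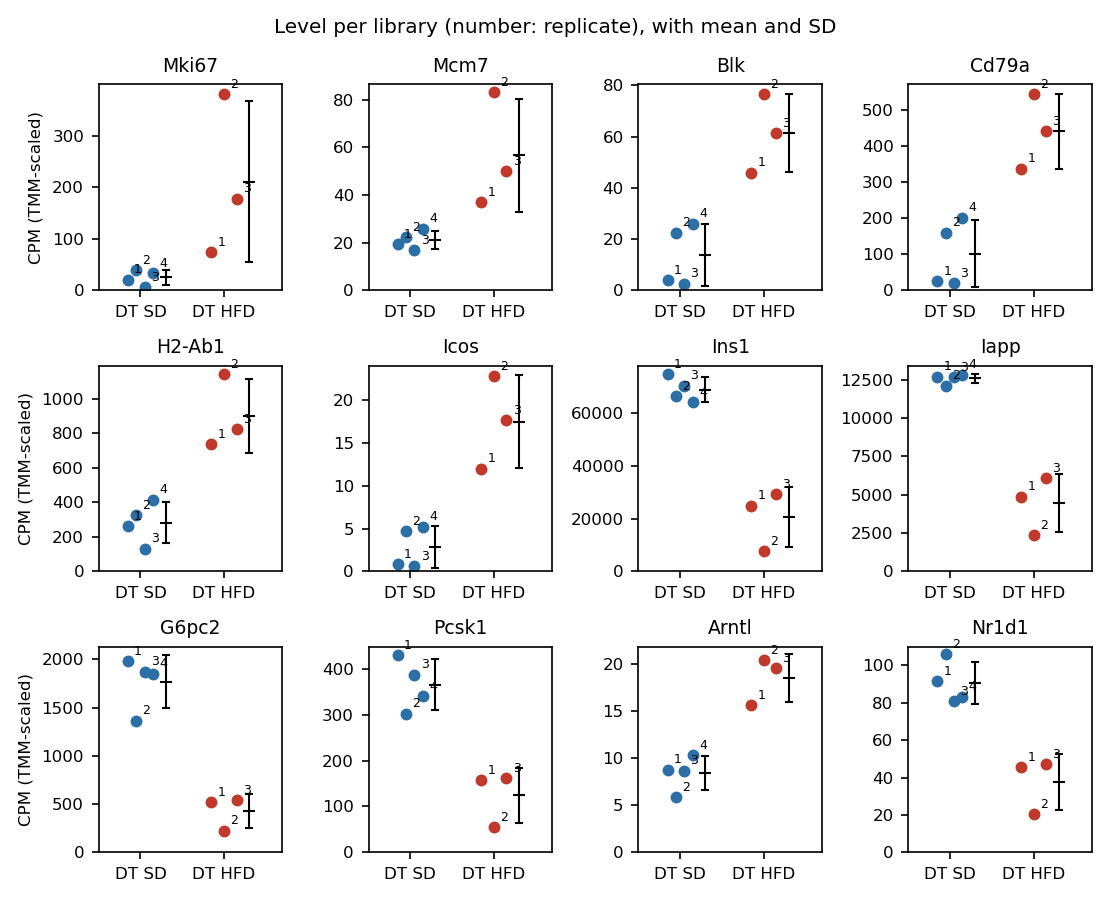
Level of 12 genes in each library (y axis, CPM on TMM-scaled library sizes, linear), with DT SD replicates in blue, DT HFD replicates in red, and the mean with its SD beside each group. In all 12 panels the 3 HFD libraries lie apart from the 4 SD libraries, and HFD replicate 2 is the farthest from them in each.

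Insulin genes and the genes that define the beta cell were lower on HFD. Ins1 (chromosome 19, 52264297 to 52265476) stood at 24900, 7779 and 29180 CPM in HFD replicates 1 to 3. In SD replicates 1 to 4 it stood at 74650, 66330, 70330 and 64120 CPM. The SD libraries lay close together, and HFD replicate 2 was the lowest by far. The log2 fold change was -1.74 (SE 0.54, edgeR adjusted p = 0.0234), and the call was also lost without SD replicate 1 or 3. Ins2 stood at 65080, 19240 and 74530 CPM on HFD and at 163500, 165300, 152900 and 152000 CPM on SD (log2 fold change -1.58, adjusted p = 0.0473). The Ins2 call was lost when any of the 7 libraries was left out, and the diets did not overlap. Iapp, the amyloid peptide released with insulin, fell by 1.50 (adjusted p = 0.0165).

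Of 26 beta-cell genes tested, 13 were called lower and 1 higher, and 19 were lower without overlap (median -1.01, and -0.72 without HFD replicate 2). G6pc2, the beta-cell glucose-6-phosphatase that sets the glucose threshold (chromosome 2, 69211073 to 69227841), stood at 520, 225.7 and 543.9 CPM on HFD and at 1981, 1365, 1871 and 1850 CPM on SD. Its lowest SD library lay far above its highest HFD library (log2 fold change -2.04, SE 0.48, adjusted p = 0.00623). Hadh, a fatty acid oxidation enzyme that restrains insulin release, fell by 1.20, and Slc30a8, the zinc transporter of insulin granules, fell by 1.26. The prolactin receptor Prlr fell by 1.44 and the transcription factor Nkx6-1 by 1.25. Foxo1, a transcription factor restrained by insulin signalling, was the 1 gene called higher (0.67, adjusted p = 0.00771). Mafa, a factor of mature beta cells, overlapped between diets and did not pass (64.7 ± 23.2 CPM, SD, n = 3, against 72.9 ± 16.8, n = 4, adjusted p = 0.793). Ucn3, another maturity marker, missed the threshold (-1.11, adjusted p = 0.0711). The count of lower calls was 6 without HFD replicate 3, and 4 without SD replicate 1 or SD replicate 3.

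The hormones of the other islet cells did not pass the test. Gcg, glucagon, stood at 36290, 20610 and 16640 CPM on HFD and at 42650, 25480, 65300 and 20650 CPM on SD, with overlap (log2 fold change -0.65, adjusted p = 0.226). Of 14 alpha-cell genes, 13 had a negative log2 fold change (median -0.59) and 1 passed, Tmem27 (-1.04). Its call was lost without HFD replicate 3, SD replicate 1 or SD replicate 3, and 5 alpha-cell genes passed without HFD replicate 1. Sst, somatostatin, ranged from 905.9 to 7771 CPM on HFD and from 731.5 to 12110 CPM on SD, and Ppy from 12.5 to 4819 and from 29.5 to 7798 CPM. Neither passed, and neither kept its sign when SD replicate 3 was left out (1.20 and 3.68). Whether the hormones differ from insulin in their change was not tested. Aldh1a3, a marker of beta cells that lose identity, also overlapped (0.669 to 8.88 CPM on HFD, 1.36 to 8.25 CPM on SD). Of 15 genes of dedifferentiation or normally silent in beta cells 1 was called higher, the hexokinase Hk2 (1.86), and 1 lower, Serpina7 (-1.99). Over all genes 15% were called higher and 8.46% lower.

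Genes of the secretory granule and its release fell with the beta-cell genes, and all 25 tested had a negative log2 fold change. Of these 16 were called lower and 0 higher, and 21 did not overlap (median -0.99, and -0.71 without HFD replicate 2). Pcsk1, the convertase that begins the processing of proinsulin (chromosome 13, 75089826 to 75134861), stood at 156.8, 55.1 and 161.7 CPM on HFD and at 429.4, 302, 386.7 and 340.7 CPM on SD. No HFD library reached the SD range (log2 fold change -1.55, SE 0.41, edgeR adjusted p = 0.0114). The granins Scg2, Chgb and Scg3, which fill the granule, fell by 1.60, 1.41 and 1.37. The peptide-trimming carboxypeptidase Cpe fell by 1.25 and the amidating enzyme Pam by 1.04. The exocytosis factors Sytl4 and Rab27a, which tether granules, fell by 1.45 and 0.70, while the membrane fusion proteins Snap25 and Stx1a did not pass (-0.95 and -0.27). The count was 4 without HFD replicate 3, 7 without SD replicate 1 and 4 without SD replicate 3. With DESeq2 and without HFD replicate 2 it was 2 for the granule list and 2 for the beta-cell list.

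**Figure D3:**
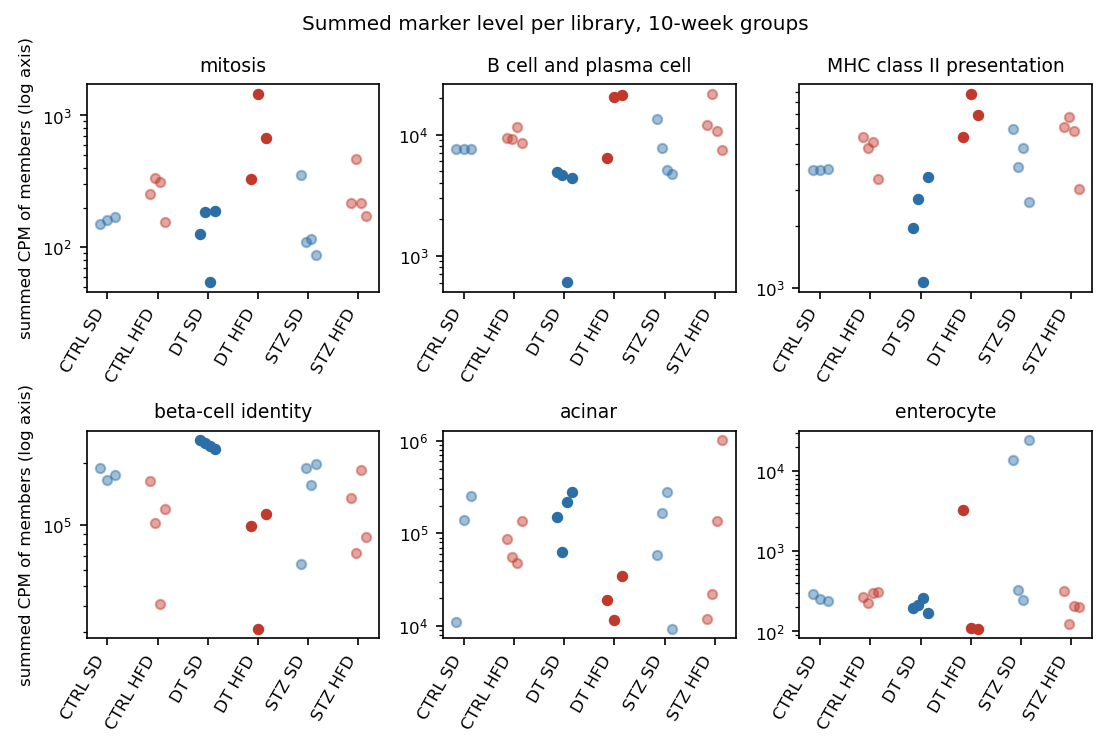
Summed CPM (y axis, log scale, ranges differing by panel) of 6 marker lists in each library of the 6 groups at 10 weeks, with the 2 DT groups in full colour. DT SD has the highest beta-cell sums (234900 to 257700 CPM) and the lowest B-cell sum (602.5 CPM), DT HFD has the highest mitosis sum (1456 CPM), and DT HFD replicate 1 stands alone within its group for enterocyte markers (3262 CPM).

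Acinar and beta-cell markers both took a smaller share of counts on HFD, without overlap. Beta-cell markers took 3.77% to 12.4% of all counts on HFD and 18.3% to 24.4% on SD. Acinar markers took 1.40% to 3.86% on HFD and 6.21% to 21.6% on SD. Of the 31 acinar genes 28 were lower without overlap (median -2.91), against 18.4% of all genes. Their spread was wide, and edgeR called 3 lower, beside 8.46% of all genes, while DESeq2 called 25 lower. Amy2a1, a pancreatic amylase, stood at 1724, 527 and 489 CPM on HFD and at 19040, 6632, 22390 and 27770 CPM on SD (log2 fold change -4.38, SE 1.61, adjusted p = 0.0485). Its call was lost without any 1 library other than SD replicate 2. The acinar count was 0 without HFD replicate 3 and 1 without HFD replicate 1 or SD replicate 1, 3 or 4. When the 2 groups were fitted alone, 31 acinar genes were called lower. Gls2 and Nupr1, which stand among the largest falls (-3.21 and -3.11), were highest in SD replicate 4, as was Amy2a1. The calls of both were likewise lost without any 1 library other than SD replicate 2. The part of acinar RNA in the other differences was not tested. Of 18 enterocyte genes 5 were called higher, beside 15% of all genes, with 3 without HFD replicate 3 and 0 without any other of the 7 libraries. Without HFD replicate 1 and the other libraries above 500 CPM of enterocyte RNA, 21 beta-cell and 23 granule genes were called lower and 23 mitosis genes higher.

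Some endothelial transcripts and 2 neuropeptides were lower as well, beside 8.46% of all genes called lower. All 14 endothelial genes had a negative log2 fold change (median -0.67) and 4 were called. Tek, the angiopoietin receptor, stood at 17.3, 10.1 and 19.4 CPM on HFD and at 43.5, 37.6, 36.4 and 31.5 CPM on SD, without overlap (log2 fold change -1.25, SE 0.28, edgeR adjusted p = 0.00551). Emcn, an endothelial surface mucin, fell by 1.08 and the receptor Tie1 by 0.97. The count was 9 without HFD replicate 1. Vip, a vasodilating neuropeptide, was among the largest falls. It stood at 25.4, 14.8 and 28.0 CPM on HFD and at 109.8, 151.5, 76.0 and 205.3 CPM on SD (log2 fold change -2.58, SE 0.61, adjusted p = 0.00663). Tac1, which encodes substance P, fell by 3.29, from 6.69 ± 1.86 CPM (SD, n = 4) to 0.674 ± 0.370 (n = 3). Of 12 smooth muscle and pericyte genes 1 was called, Rgs5, a regulator of G-protein signalling in pericytes (-0.78), and 5 were positive (median -0.15). Of 10 sympathetic neuron and 10 Schwann cell genes 0 were called by edgeR, 0 had an unadjusted p below 0.05 and DESeq2 called 0. Their medians were -0.73 and -0.38, with 8 and 7 genes negative. Without the libraries above 500 CPM of enterocyte RNA 6 sympathetic neuron genes were called lower and 1 Schwann cell gene higher, and when the 2 groups were fitted alone 1 gene of each list was called lower. Of 18 collagen and fibroblast genes 1 was called, Dcn (-1.22), and the fibroblast genes Mfap5 and Pi16 were among the largest falls (-2.83 and -2.55). The Dcn call was lost without HFD replicate 1, HFD replicate 3 or SD replicate 1.

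The medians of the stress and metabolic lists were smaller in size than those of the beta-cell and granule lists. Their direction differed between lists, and single genes changed by more. Over all genes 15% were called higher and 8.46% lower. Of 18 fatty acid synthesis genes 16 had a negative log2 fold change (median -0.45), with 1 called higher and 2 lower. Of 28 genes of the unfolded protein response and protein folding 22 had a negative log2 fold change, and 8 were called lower and 1 higher (median -0.39). The chaperones Dnajc3 and Dnajb9 of the endoplasmic reticulum fell by 0.74 and 0.98. Asns and Chac1, targets of the amino acid response, fell by 1.64 and 1.97, while the ubiquitin ligase Syvn1 rose by 0.77. Hspa5, the main chaperone of that compartment, did not pass (-0.33, adjusted p = 0.153). The count of lower calls was 5 without SD replicate 1 or SD replicate 3. Of 22 genes of sterol synthesis and uptake 5 were called higher and 2 lower, and the higher count was 3 without HFD replicate 3. Idi1, an isomerase of the pathway, stood at 46.1, 72.5 and 60.7 CPM on HFD and at 28.1, 30.1, 27.4 and 28.7 CPM on SD, without overlap (log2 fold change 1.06, SE 0.22, edgeR adjusted p = 0.00459). Srebf2, the regulator of the pathway, rose by 0.86, while its target Insig1 fell by 0.70. The metallothioneins Mt1 and Mt2, which bind zinc, fell by 1.83 and 2.19. The Mt2 call was lost without SD replicate 3, and the Mt1 call without any library but HFD replicate 3 or SD replicate 2. Of 28 oxidative phosphorylation genes 2 were called lower, and 0 without SD replicate 1 or 3. Before TMM scaling their summed share of counts was higher on HFD (0.291% to 0.335%) than on SD (0.228% to 0.264%). Of 15 glycolysis genes edgeR called 0, with 3 at an unadjusted p below 0.05, and DESeq2 called 1 higher and 1 lower. Of 27 ribosomal protein genes 26 had a positive log2 fold change (median 0.55), 21 were higher without overlap and 1 was called. That 1 call, Rplp2, was lost without any library other than SD replicate 4, and 15 were called when the 2 groups were fitted alone.

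Of the circadian clock genes Arntl rose, and 5 repressor and output genes fell. Arntl (BMAL1) is the activator of the core clock. The nuclear receptors Nr1d1 and Nr1d2 repress it, and Dbp, Tef and Hlf are output factors driven by it. Arntl (chromosome 7, 113207465 to 113314126) stood at 15.6, 20.4 and 19.5 CPM on HFD and at 8.77, 5.89, 8.67 and 10.3 CPM on SD. The diets did not overlap, and the log2 fold change was 1.14 (SE 0.20, edgeR adjusted p = 0.00315). Nr1d1 stood at 45.4, 20.6 and 47.2 CPM on HFD and at 91.8, 105.8, 80.9 and 83.3 CPM on SD, lower in all 3 HFD libraries (log2 fold change -1.26, adjusted p = 0.0266). Nr1d2 fell by 1.01, Dbp by 1.29, Tef by 0.85 and Hlf by 1.10. Of 16 clock genes 5 were called lower and 1 higher, while Clock, Per1, Per2 and Cry1 did not pass. The count of lower calls was 3 without SD replicate 1 or SD replicate 2. In CTRL the diet difference of Arntl was -0.42 and after STZ -0.31. The test of the difference between DT and CTRL gave an adjusted p of 0.12 and that between DT and STZ 0.064, both with edgeR.

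**Figure D4:**
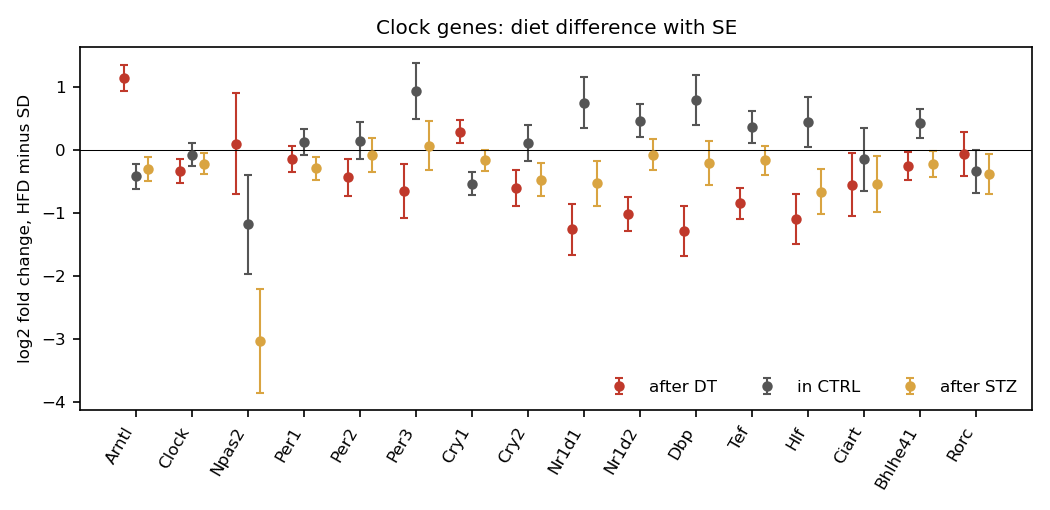
Diet difference of 16 clock genes (y axis, log2 fold change HFD minus SD, with its SE) after DT (red), in CTRL (grey) and after STZ (yellow). After DT Arntl lies at 1.14 and Nr1d1, Nr1d2, Dbp, Tef and Hlf lie between -1.29 and -0.85, while in CTRL Arntl lies at -0.42.

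The same diets were compared in mice without toxin and after STZ, with no library in common with the DT comparison. In CTRL edgeR called 0 genes (0%), with 439 at an unadjusted p below 0.05, and DESeq2 called 18 higher and 6 lower. After STZ edgeR called 24 genes (0.136%), all lower, with 2293 at an unadjusted p below 0.05, and DESeq2 called 37 higher and 574 lower. Of the 2646 genes called higher after DT, 82.16% had the same sign in CTRL (52.23% of all genes were positive there) and 84.47% after STZ (50.57% of all genes). Of the 1490 called lower, 78.46% were negative in CTRL (47.32% of all genes) and 76.78% after STZ (49.36%). The genes were chosen for passing after DT, which by itself makes their size larger there than in the other comparisons, so the sizes are a description only. The medians of the genes called higher were 0.96 after DT, 0.16 in CTRL and 0.23 after STZ, and of those called lower -0.87, -0.12 and -0.17. Of the 24 genes called lower after STZ 2 were also called lower after DT.

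List medians in the 3 comparisons stand side by side here. The mitosis median was 2.45 after DT, 0.73 in CTRL and 0.74 after STZ, and the MHC class II median 1.63, 0.32 and 0.34. The beta-cell median was -1.01, -0.16 and -0.31. Summed beta-cell markers also did not overlap in CTRL, at 41160 to 162500 CPM on HFD and 165500 to 188100 CPM on SD. After DT they summed to 30980 to 112800 CPM on HFD and 234900 to 257700 CPM on SD. After STZ the sums overlapped, at 73090 to 185600 CPM on HFD and 64420 to 197400 CPM on SD. In CTRL the log2 fold changes of Ins1 and Ins2 were -0.93 and -0.70, and edgeR called neither. The acinar median was -2.91 after DT, -0.68 in CTRL and 1.21 after STZ. Tested gene by gene, the diet difference after DT differed from that in CTRL for 0 genes with edgeR (0%), with 2751 at an unadjusted p below 0.05, and for 106 with DESeq2. It differed from that after STZ for 1 gene with edgeR (0.00568%), the variable segment Ighv5-9, with 3607 genes at an unadjusted p below 0.05, and for 849 with DESeq2. The Ighv5-9 log2 fold change was 7.86 after DT and -3.57 after STZ, a difference of 11.43 (SE 1.86, edgeR adjusted p = 0.0293). The count was 0 without DT HFD replicate 3, DT SD replicate 1, 2 or 3, STZ HFD replicate 1 or 4, or STZ SD replicate 1 or 4, and 530 and 506 without STZ SD replicates 2 and 3.

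**Figure D5:**
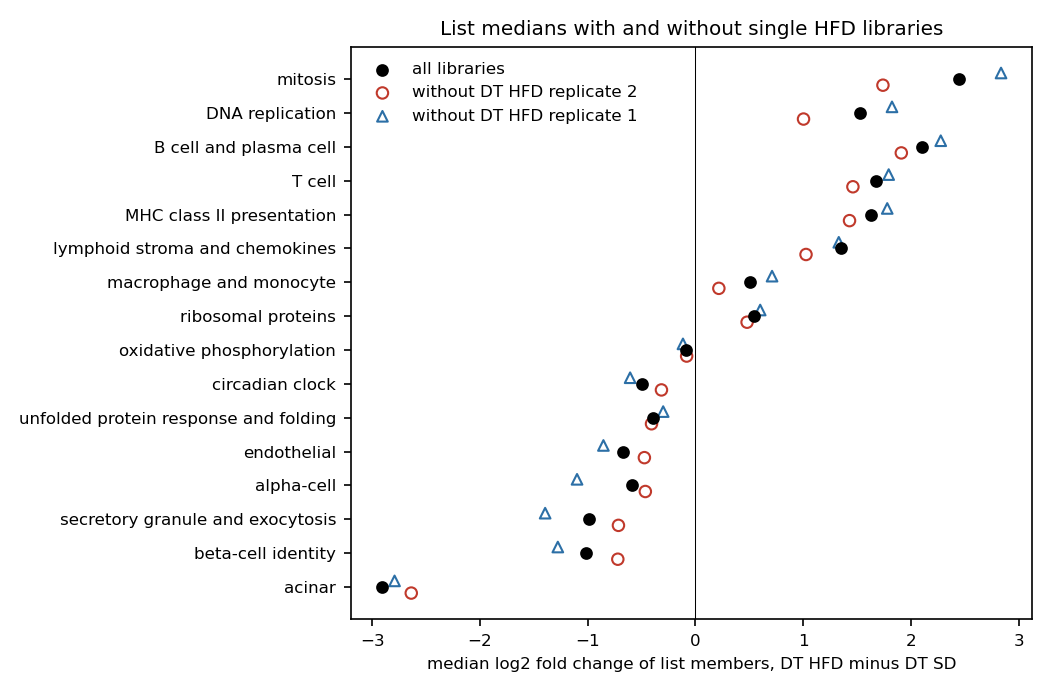
Median log2 fold change of 16 gene lists (x axis, HFD minus SD after DT) with all libraries (filled circles), without HFD replicate 2 (open circles) and without HFD replicate 1 (triangles). Each of the lists kept the sign of its median in both cases, and the mitosis median went from 2.45 to 1.74 without HFD replicate 2.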

How the data were processed

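Bulk RNA-seq of pancreatic islets was used, with libraries from the QIAseq stranded mRNA kit, per the labels. The build is mm10 per the submitters' processing notes. The sources used here name no aligner, counter, strand setting or annotation. Total read counts per gene were deposited, per the file headers, and all tests used them as deposited. RPKM and TPM values of the authors, and a deposited per-library score headed CPM whose scaling is not explained, stayed unused. The library number in each label identified its column, and 0 columns were of other samples. Of 48709 genes 48349 (99.26%) were found in GENCODE release M21, the source of the coordinates.

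The labels placed 33 libraries in 9 groups. The remaining library, titled CTRL HFD but labelled DT, entered no comparison. Every pair of libraries within the 2 groups differed by more than counting noise (chi-square per degree of freedom 44.92 to 133.33). The filterByExpr filter of edgeR 4.0.16 in R 4.3.3 (count minimum 10, total minimum 15) left 17616 genes. TMM scaling and 1 robust quasi-likelihood fit over the 33 libraries were used, with Benjamini-Hochberg adjustment and a threshold of 0.05. SEs are on the log2 scale. CPM are relative to TMM-scaled library size and carry no gene length, so levels were compared within a gene only. The script was tested on simulated data.

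The comparison and the 40 gene lists (718 genes) were chosen with earlier results of these data known. Lists got no test of their own. The naming rule took a fixed set of hormone, beta-cell and cell-cycle genes, the 12 called genes that rose most and the 12 that fell most if their mean log2 CPM reached 1 (leaving out unnamed gene models, pseudogenes and mitochondrial genes), and up to 3 called members per list, or 2 with the smallest p where none was called. Genes outside it are list members or are said to be chosen after their values were seen, and not every gene it takes is reported here. Ero1b and Itgam, 2 list members, were not found in the table by symbol. Alternatives were scaling by DESeq2 size factors, dropping the low-count filter, a stricter filter (1 CPM in 3 libraries, 50 counts in all), hormone genes left out, fits of fewer groups, a block for the replicate number, DESeq2 1.42.0 with its Wald test, and each library left out. Leaving out libraries above 500 CPM of enterocyte markers and DESeq2 without HFD replicate 2 were added after seeing the data. Depth, 12389314 to 17889676 counts per library, limits genes of a few counts.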

Additional observations from a re-analysis of the deposited data

Results flagged for a closer look

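Within the 4 DT SD libraries, 13 values reported here, among 128 genes examined, lay far from the other 3 by Dixon's test at the 95% level, which chance passes in about 1 group in 20. SD replicate 3 held 317.4 CPM of Ucn3 (366.2 to 375.3 in the others), 7798 CPM of Ppy, the pancreatic polypeptide (29.5 to 186.9), and 6.99 CPM of Itgax (11.3 to 11.8). It also held 0.0842 CPM each of the enterocyte genes Apoa1 and Fabp2, which were at 0 in the others. Each of these is 1 read, and with 3 values at 0 any read passes the test by construction. SD replicate 4 held 15.1 CPM of the antibody segment Igkv1-133 (0.0719 to 0.574), 52.6 CPM of Emcn (68.3 to 71.3) and 87.8 CPM of the duct keratin Krt7 (118 to 123.5). SD replicate 2 held 61.5 CPM of Igkv3-2 (1.01 to 6.64), 89.6 CPM of Tef (76.4 to 76.9) and 182.1 CPM of the pericyte gene Rgs5 (155.6 to 159.3). SD replicate 1 held 19.99 CPM of Mfap5 (5.47 to 7.82) and 34.5 CPM of Cd163 (6.25 to 10.8). The diet difference of Ighv5-9 was 11.43 higher after DT than after STZ on the log2 scale (edgeR adjusted p = 0.0293), a call that was lost when any 1 of 8 libraries was left out. Groups of 3, such as DT HFD, were not examined in this way.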

How the results depend on the processing

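Each of the 2646 genes called higher and 1490 called lower kept its sign without DT HFD replicate 2, but its edgeR call was lost. Leaving out 1 library gave 0 to 3048 genes higher and 0 to 1950 lower, 0 genes for the difference from CTRL and 0 to 530 for that from STZ, with 530 without STZ SD replicate 2 and 506 without STZ SD replicate 3. DESeq2 without DT HFD replicate 2 gave 816 higher and 354 lower. Without the libraries that held enterocyte RNA, 3074 genes were lower, 349 differed from CTRL and 0 from STZ, and 52.57% of calls were higher, against 63.97% with all libraries and 54.11% when the 2 groups were fitted alone. The difference from STZ was 0 genes with no low-count filter, 2 with a stricter one, 2 with hormone genes left out, 0 with the groups compared alone, 0 with the 10-week groups and 849 with DESeq2. That from CTRL was 2, 1 and 106 in the last 3. The cause was not tested.

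Whether the replicate numbers pair the samples is not known. Deviations from the group mean correlated at 0.051, 0.184 and -0.094 between libraries of the same number, 1 to 3. Between libraries of different numbers the correlations ranged from -0.285 to 0.312. So few pairs cannot exclude a pairing. With the number as a replicate block 2690 genes were higher and 1577 lower. Of the named genes 5 that had not passed turned sign. With the block Sst was at 0.29, Ppy at 1.43, Aldh1a3 at -0.52 and Cdkn1a at -0.13. With 1 of the 7 libraries left out Sst ranged from -1.23 to 1.20, Ppy from -4.99 to 3.68, Aldh1a3 from -1.12 to 0.63, Cdkn1a from -0.12 to 0.14 and Mafa from -0.41 to 0.0892. The list medians that turned sign then ranged from -1.10 to 0.60 (delta-cell), -0.41 to 0.55 (dedifferentiation), -0.21 to 0.13 (fatty acid oxidation), -0.11 to 0.23 (immediate early and heat shock) and -0.90 to 0.0130 (Schwann cell). Without the enterocyte libraries Aldh1a3 was at -1.13, Cdkn1a at -0.13 and the dedifferentiation and fatty acid oxidation medians at -0.43 and -0.22. With DESeq2 and without HFD replicate 2 Sst was at 0.0305, Ppy at 0.25, Mafa at 0.096 and the immediate early, smooth muscle and Schwann cell medians at -0.11, 0.0015 and 0.0202. The adipocyte median (-0.27) was 0.21 with the 10-week groups.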

Other observations

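Smaller groups held a few calls each, all of which were lost without HFD replicate 2. Of 19 insulin and IGF signalling genes 2 were called higher and 3 lower, against 15% and 8.46% of all genes. The lower count was 5 without HFD replicate 1 and 1 without HFD replicate 3, and the higher count was 1 without HFD replicate 3 or SD replicate 3 and 0 without SD replicate 1. Igfbp3, an IGF-binding protein, stood at 60.5, 20.7 and 57.8 CPM on HFD and at 97.2, 93.4, 107.8 and 86.5 CPM on SD, without overlap (log2 fold change -1.05, SE 0.31, edgeR adjusted p = 0.0173). Pik3ca, the catalytic subunit of PI3 kinase, rose by 0.39, and its call was lost without SD replicate 1. Of 9 genes of the prolactin and serotonin pathway 1 was called higher and 2 lower. Socs2, a feedback inhibitor of prolactin and growth hormone signalling, stood at 23.9, 19.4 and 24.1 CPM on HFD and at 38.5, 37.1, 42.5 and 47.3 CPM on SD, also without overlap (-0.88, adjusted p = 0.0108). Ddc, which makes serotonin and dopamine from their precursors, fell by 1.16, and its call was lost without SD replicate 1 or 3. Of 7 erythrocyte and platelet genes 2 were called lower, the globins Hba-a2 (-1.82) and Hbb-bs (-1.72), and 0 without HFD replicate 3, SD replicate 1 or SD replicate 2.

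The library that is titled CTRL HFD but labelled DT was left out of every comparison. On unscaled CPM it held 18680 of Ins1, 42710 of Ins2, 8986 of Gcg, 116.2 of Mki67, 12790 of Ighm, 373.3 of Cd79a, 4678 of Amy2a1 and 16.9 of Arntl. On the same scale the 3 DT HFD libraries ranged from 88.7 to 462.9 for Mki67, 1661 to 8349 for Ighm, 401.9 to 659 for Cd79a and 18.6 to 24.8 for Arntl. The 4 CTRL HFD libraries ranged from 31.2 to 90.8, 2386 to 5630, 195.7 to 399.8 and 16.3 to 19.4 for the same genes. Its Mki67 thus lay in the DT HFD range and above that of CTRL HFD. Its G6pc2 (476.1), Dbp (34.4) and Sst (2900) also lay in the DT HFD range. They were below the lowest CTRL HFD library (637.5, 49.2 and 3808). Its Cd79a and Arntl lay in the CTRL HFD range and below that of DT HFD. Its Ins1 and Ins2 lay in both ranges. Its Ighm was above both, its Gcg below both and its Amy2a1 between them. Which label is right was not tested.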
